A study of Comephorus dybowskii and Comephorus baikalensis and Batrachocottus nikolskii with 4 samples.

Results

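Troponin is the calcium switch of the thin filament in striated muscle. Troponin C binds calcium, troponin I holds the thin filament off until calcium arrives, and troponin T anchors both to tropomyosin. Vertebrates carry separate genes for fast skeletal, slow skeletal and cardiac forms of troponin I and troponin T. Troponin C has a fast skeletal form and a slow form, which slow skeletal and cardiac muscle share in mammals. Fish often hold several copies of each.

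The 10 identifiers described here were the troponin C, I and T entries listed for the muscle transcriptome of Baikal sculpins, each of which carried at least 1 troponin title in the authors' annotation of the 792 identifiers in the normalized tables. An identifier is a name that the assembler gives at the gene level. Each species was assembled separately before merging, and the same name can cover transcripts of different proteins, so an identifier need not be a single gene. The common prefix TRINITY is printed only where each of the 10 is first described. Another 7 identifiers among the 792 also carried a troponin title, which makes 17 in the titles that could be read. Muscle of 4 wild species was compared: *Comephorus dybowski* and *C. baicalensis*, which are pelagic, and *Batrachocottus nikolskii* and *B. multiradiatus*, which are benthic. Each species had 1 library made from pooled RNA of adult fish, with 15 individuals per pool by the labels (the methods of the study give a larger number), so no spread within a species was measured. In tests between genera, each species counted as 1 sample, and genus, habitat and ancestry cannot be told apart in this design. The count tables held 54508410 to 59156409 reads per library.

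Expression was measured as CPM, reads scaled to a common library size that the authors had adjusted. CPM is not corrected for transcript length, so differences are given for 1 identifier at a time, and sums over the identifiers of a form, which may differ in length, are given as descriptions. Where an identifier joined several transcripts, the length behind its reads could still differ between species. All 792 identifiers had been selected by the authors from these same libraries for a difference between at least 1 pair of species, so every one of the 10 had to differ somewhere. Of the 10, 5 carried troponin titles alone and 5 also carried the title of another protein, and reads were counted for the identifier as a whole. Skeletal muscle markers (22 identifiers) summed to 135520 CPM in *C. dybowski* and 129012 CPM in *C. baicalensis*, against 120470 CPM in *B. nikolskii* and 182994 CPM in *B. multiradiatus*. Markers of the labelled tissue were thus present in all 4 libraries, although only 6 of the 22 carried a single title. These 6 summed to 30485 and 4895 CPM in *C. dybowski* and *C. baicalensis*, against 46404 and 66373 CPM in *B. nikolskii* and *B. multiradiatus*. On these, *C. baicalensis* was the lowest. In bulk muscle, fewer fibres of a type and less RNA per fibre cannot be told apart.

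**Figure D1:**
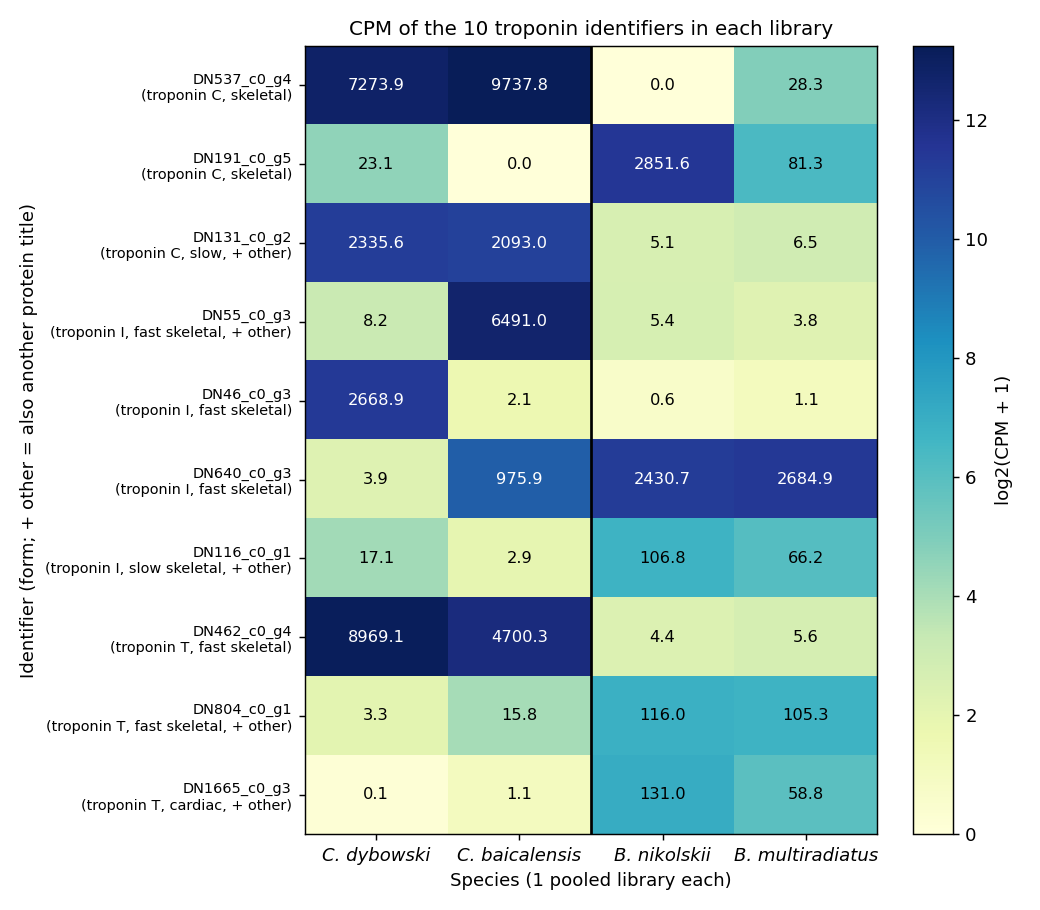
CPM of the 10 troponin identifiers (rows, grouped by subunit and form) in the 4 species (columns, 1 pooled library each), with colour on the log2(CPM + 1) scale. Of the 3 fast troponin I rows, 1 was high in *C. dybowski*, 1 in *C. baicalensis*, and 1 in both *Batrachocottus* species and to a lesser degree in *C. baicalensis*.

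Fast skeletal troponin I, the inhibitory subunit of fast muscle, was held by a different identifier in different species. The sum over its 3 identifiers differed by no more than 3.07-fold between any 2 species. Whether the 3 are separate genes, or the same gene as assembled separately in different species, was not tested. TRINITY_DN46_c0_g3 stood at 2668.9 CPM in *C. dybowski* and 2.12 CPM in *C. baicalensis*, against 0.562 CPM in *B. nikolskii* and 1.13 CPM in *B. multiradiatus*. It was therefore high in *C. dybowski* alone, 1259.5-fold above the other *Comephorus* species. TRINITY_DN55_c0_g3 stood at 8.24 CPM in *C. dybowski* and 6491 CPM in *C. baicalensis*, against 5.39 CPM in *B. nikolskii* and 3.84 CPM in *B. multiradiatus*. This identifier, high in *C. baicalensis* alone, also carried the title of aldehyde dehydrogenase family 16 member A1 on another of its transcripts. TRINITY_DN640_c0_g3 stood at 3.95 CPM in *C. dybowski* and 975.9 CPM in *C. baicalensis*, against 2430.7 CPM in *B. nikolskii* and 2684.9 CPM in *B. multiradiatus*. It was the main fast troponin I entry of both benthic species, which lay 1.105-fold apart, and was also present in *C. baicalensis*.

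Summed over these 3 identifiers, fast troponin I gave 2681 CPM in *C. dybowski* and 7469 CPM in *C. baicalensis*, against 2437 CPM in *B. nikolskii* and 2690 CPM in *B. multiradiatus*. The other 3 species thus lay close together and *C. baicalensis* stood above them. DN46_c0_g3 made up 99.5% of this sum in *C. dybowski* (95% Wilson interval 99.51 to 99.58). In *C. baicalensis*, DN55_c0_g3 made up 86.9% (86.80 to 87.01) and DN640_c0_g3 13.1% (12.96 to 13.17). The share of DN640_c0_g3 was 99.76% in *B. nikolskii* (99.73 to 99.78) and 99.82% in *B. multiradiatus* (99.79 to 99.84). These intervals cover counting error only, and the shares are not corrected for transcript length. The log2 difference of the sum was 0.81 for *Comephorus* minus *Batrachocottus*, about the size of the pooled SD between species of a genus (0.74). Without DN55_c0_g3, the identifier with a second title, the sum was 2673 CPM in *C. dybowski* and 978 CPM in *C. baicalensis*, against 2431 CPM in *B. nikolskii* and 2686 CPM in *B. multiradiatus*, and the log2 difference turned to -0.66.

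None of the 3 fast troponin I identifiers passed the test between genera. For each of them both *Comephorus* values lay on 1 side of both *Batrachocottus* values, which was also the case for 84.5% of the 792. In limma on log2(CPM + 1), fitted over all 792 identifiers, the difference was 5.65 ± 3.54 for DN46_c0_g3 (SE, adjusted p = 0.224). It was 5.46 ± 3.44 for DN55_c0_g3 (adjusted p = 0.226) and -5.20 ± 2.80 for DN640_c0_g3 (adjusted p = 0.177), and the unadjusted p of each was over 0.05 too. The 2 *Comephorus* species differed from each other by 9.74, -9.46 and -7.63 on this scale (*C. dybowski* minus *C. baicalensis*), each more than the difference between genera. Leaving out either *Comephorus* library moved the genus difference to 0.78 or 10.52 for DN46_c0_g3, 10.19 or 0.73 for DN55_c0_g3 and -1.39 or -9.01 for DN640_c0_g3 (without *C. dybowski* or *C. baicalensis*), with none called.

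**Figure D2:**
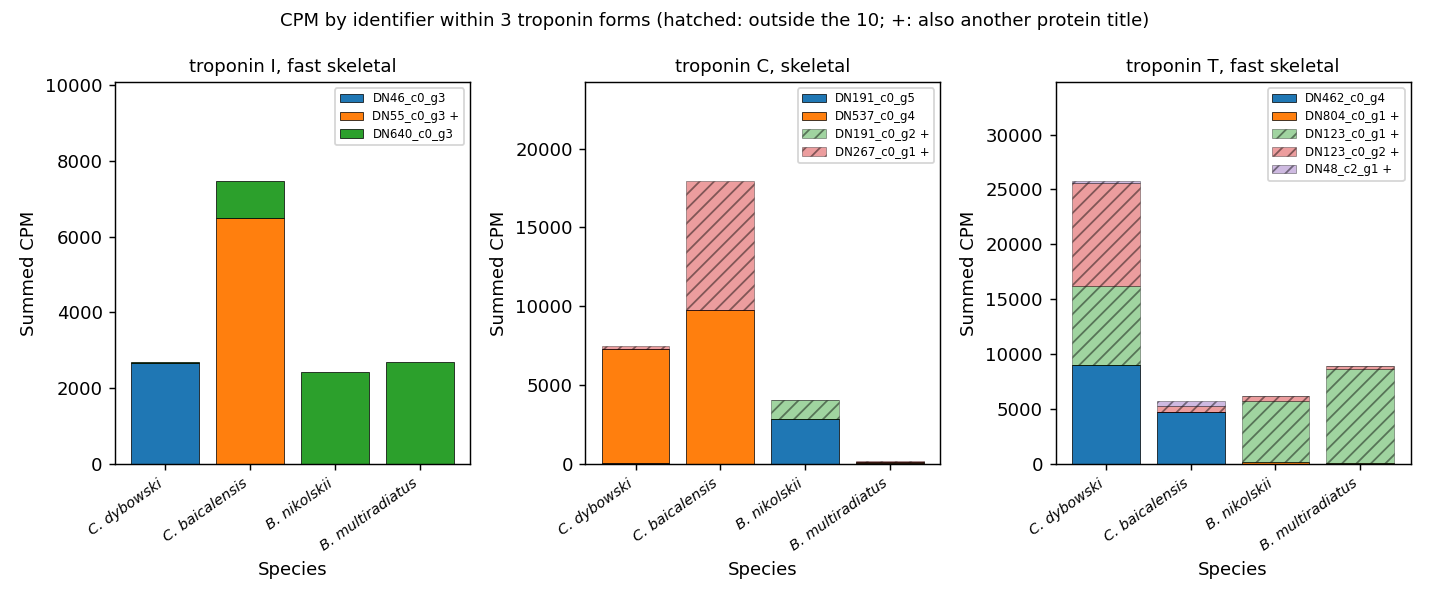
Stacked CPM of the identifiers that share a title, for fast troponin I, skeletal troponin C and fast troponin T (panels) in the 4 species (bars). Solid parts are the listed identifiers, hatched parts are others with that title, and a plus marks identifiers with a second protein title. For fast troponin I, both benthic bars were made up of DN640_c0_g3 and the pelagic bars mainly of 2 other identifiers, and for fast troponin T nearly all of the benthic bars came from hatched identifiers.

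Skeletal troponin C, the calcium sensor of fast muscle, was held mainly by 1 identifier in both *Comephorus* species and by another in *B. nikolskii*. Both identifiers were low in *B. multiradiatus*, and whether they are separate genes was not tested. TRINITY_DN537_c0_g4 stood at 7273.9 CPM in *C. dybowski* and 9737.8 CPM in *C. baicalensis*, against a listed value of 0 in *B. nikolskii* (at most 0.0441 CPM at a limit of 3 counts) and 28.3 CPM in *B. multiradiatus*. Both pelagic species were high and lay 1.34-fold apart. The difference between genera was 10.60 ± 1.88 (SE) on the log2(CPM + 1) scale and passed the test (limma, adjusted p = 0.0199). It was 8.17 without the *B. nikolskii* library and 13.04 without the *B. multiradiatus* library, so its size rests on these very different low values.

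TRINITY_DN191_c0_g5, the other skeletal troponin C entry of the 10, ran the opposite way. It was at 23.1 CPM in *C. dybowski* and listed at 0 in *C. baicalensis* (at most 0.0567 CPM), against 2851.6 CPM in *B. nikolskii* and 81.3 CPM in *B. multiradiatus*. Only *B. nikolskii* was high, 35.1-fold above *B. multiradiatus*. The difference between genera of -6.63 ± 2.54 did not pass (limma, adjusted p = 0.0926). It was -4.07 without *B. nikolskii*, -9.18 without *B. multiradiatus*, -8.92 without *C. dybowski* and -4.33 without *C. baicalensis*.

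The sum of both skeletal troponin C identifiers was 7297 CPM in *C. dybowski* and 9738 CPM in *C. baicalensis*, against 2852 CPM in *B. nikolskii* and 109.6 CPM in *B. multiradiatus*. *B. multiradiatus* therefore had no listed identifier of this form at a level near that of the other species. A pair of further identifiers carried the skeletal troponin C title together with titles of unrelated proteins. DN267_c0_g1 (also the nuclear migration protein nudC and reticulon-4) was at 168.8 CPM in *C. dybowski* and 8185 CPM in *C. baicalensis*, against 18.4 CPM in *B. nikolskii* and 36.0 CPM in *B. multiradiatus*. DN191_c0_g2 (also a TFIID subunit and tubulin alpha) was at 2.61 and 3.23 CPM in *C. dybowski* and *C. baicalensis*, against 1186.8 CPM in *B. nikolskii* and 10.1 CPM in *B. multiradiatus*. It thus shared with DN191_c0_g5 a high value in *B. nikolskii* alone. With both added, the sums were 7468 and 17926 CPM in *C. dybowski* and *C. baicalensis*, against 4057 and 155.6 CPM in *B. nikolskii* and *B. multiradiatus*, and *B. multiradiatus* was still the lowest.

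TRINITY_DN131_c0_g2 was the identifier titled slow troponin C, the form that slow skeletal and cardiac muscle share in mammals, and also carried another title. It stood at 2335.6 CPM in *C. dybowski* and 2093 CPM in *C. baicalensis*, against 5.12 CPM in *B. nikolskii* and 6.48 CPM in *B. multiradiatus*. The 2 species of each genus lay close together, 1.12-fold apart in *Comephorus* and 1.27-fold in *Batrachocottus*. The difference between genera was 8.35 ± 0.72 and passed the test (limma, adjusted p = 0.0126). The other title, 60S ribosomal protein L36, a structural protein of the ribosome, stood on a separate transcript. By the authors' numbering, the troponin C transcript lay in a range where 30 of 44 identifiers were highest in *B. multiradiatus*. The ribosomal transcript lay in a range where 64 of 131 were highest in *C. baicalensis*. Which of the transcripts the reads came from was not tested, so the values need not be those of troponin C. The pattern nearest to that of DN131_c0_g2 among 316 identifiers with a single title other than troponin was that of DN5744_c0_g1, 60S ribosomal protein L21. That identifier was at 925.3 and 780.1 CPM in *C. dybowski* and *C. baicalensis*, against 1.84 and 2.90 CPM in *B. nikolskii* and *B. multiradiatus*. Ribosomal entries were also nearest to DN46_c0_g3, DN462_c0_g4 and DN640_c0_g3, which carried troponin titles alone, so such a match cannot tell the titles apart.

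Fast skeletal troponin T, which ties the complex to tropomyosin in fast fibres, was represented by TRINITY_DN462_c0_g4 and TRINITY_DN804_c0_g1, and both passed the test in opposite directions. DN462_c0_g4 carried troponin titles alone and stood at 8969 CPM in *C. dybowski* and 4700 CPM in *C. baicalensis*, against 4.38 CPM in *B. nikolskii* and 5.56 CPM in *B. multiradiatus*. Both pelagic libraries were far above both benthic ones, with a difference of 10.09 ± 0.79 (SE, limma, adjusted p = 0.0126). DN804_c0_g1 was at 3.31 CPM in *C. dybowski* and 15.8 CPM in *C. baicalensis*, against 116 CPM in *B. nikolskii* and 105.3 CPM in *B. multiradiatus*. This identifier was lower in *Comephorus* by -3.71 ± 1.00 (SE, limma, adjusted p = 0.0410). It also carried the titles of the ubiquitin ligase MARCH7 and of lymphocyte antigen 75, an endocytic receptor of immune cells, on another transcript.

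The sum of these 2 fast troponin T identifiers was 8972 CPM in *C. dybowski* and 4716 CPM in *C. baicalensis*, against 120.4 CPM in *B. nikolskii* and 110.8 CPM in *B. multiradiatus*. This contrast turned on identifiers outside the 10. DN123_c0_g1, which carried a fast troponin T title on 3 transcripts and a myosin light chain title on others, was at 7236.5 CPM in *C. dybowski* and 38.9 CPM in *C. baicalensis*, against 5587.5 CPM in *B. nikolskii* and 8493.9 CPM in *B. multiradiatus*. It was low in *C. baicalensis* alone, and its groups overlapped. DN123_c0_g2, with the titles of 4 other proteins, was at 9422 and 544.6 CPM in *C. dybowski* and *C. baicalensis*, against 464.7 and 277.5 CPM in *B. nikolskii* and *B. multiradiatus*. DN48_c2_g1, also titled calpain-7 and a transmembrane protein, was at 122 and 449.3 CPM in *C. dybowski* and *C. baicalensis*, against 8.64 and 15.4 CPM in *B. nikolskii* and *B. multiradiatus*, and was higher in *Comephorus* (4.23 ± 1.01, SE, limma, adjusted p = 0.0322). With all 5 identifiers of this title, the sums were 25753 and 5749 CPM in *C. dybowski* and *C. baicalensis*, against 6181 and 8898 CPM in *B. nikolskii* and *B. multiradiatus*. The log2 difference of the sum was then 0.71, under its pooled SD of 1.11, against 5.80 for the 2 listed identifiers. How much of the DN123_c0_g1 reads belonged to troponin T and how much to the myosin light chain was not tested.

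Slow troponin I and cardiac troponin T, the forms of slow and heart muscle, had lower values in both *Comephorus* libraries than in both *Batrachocottus* libraries for the identifier listed for each. TRINITY_DN116_c0_g1, titled slow skeletal troponin I and also heat shock protein beta-8, a small chaperone, was at 17.1 CPM in *C. dybowski* and 2.86 CPM in *C. baicalensis*, against 106.8 CPM in *B. nikolskii* and 66.2 CPM in *B. multiradiatus*. The difference of -3.35 ± 1.09 did not pass the test (limma, adjusted p = 0.0656). The other identifier with this title, DN2629_c0_g1 (also the mitochondrial protease subunit clpX-like), was at 4.95 and 13.6 CPM in *C. dybowski* and *C. baicalensis*, against 207.3 and 58.7 CPM in *B. nikolskii* and *B. multiradiatus*, and did not pass either (limma, adjusted p = 0.0519). The 2 identifiers summed to 22.05 and 16.4 CPM in *C. dybowski* and *C. baicalensis*, against 314.1 and 124.9 CPM in *B. nikolskii* and *B. multiradiatus*, and the benthic values were again the higher ones.

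TRINITY_DN1665_c0_g3, titled cardiac troponin T and also dynamin-1-like protein, a GTPase of mitochondrial fission, was at 0.141 CPM in *C. dybowski* and 1.07 CPM in *C. baicalensis*, against 131 CPM in *B. nikolskii* and 58.8 CPM in *B. multiradiatus*. These values correspond to 8 and 57 reads in the pelagic libraries, and the identifier was lower in *Comephorus* by -5.85 ± 0.88 (SE, limma, adjusted p = 0.0186). DN349_c0_g1, the other identifier with this title, was at 7.90 and 1.53 CPM in *C. dybowski* and *C. baicalensis*, against 37.6 and 3.41 CPM in *B. nikolskii* and *B. multiradiatus*, so its groups overlapped. With both, the sums were 8.04 and 2.60 CPM in *C. dybowski* and *C. baicalensis*, against 168.6 and 62.3 CPM in *B. nikolskii* and *B. multiradiatus*. The summed level of 7 heart or slow fibre markers was 33720 and 55118 CPM in *C. dybowski* and *C. baicalensis*, against 20699 and 38848 CPM in *B. nikolskii* and *B. multiradiatus*. These ranges overlapped, and none of the 7 was at 0 in any library. The overlap rests on DN60_c0_g2, which also carried a skeletal alpha actin title: without it the other 6 summed to 806.7 and 3056 CPM in *C. dybowski* and *C. baicalensis*, against 20662 and 38767 CPM in *B. nikolskii* and *B. multiradiatus*, lower in both *Comephorus* libraries like the slow troponin I and cardiac troponin T identifiers listed here. The order turned again for the 4 markers with no skeletal muscle marker title, at 408.5 and 2900 CPM in *C. dybowski* and *C. baicalensis*, against 253 and 263.5 CPM in *B. nikolskii* and *B. multiradiatus*. For the 2 markers with a single title the genera overlapped. These were at 54.15 and 1938 CPM in *C. dybowski* and *C. baicalensis*, against 239.3 and 163.1 CPM in *B. nikolskii* and *B. multiradiatus*. The part of heart or slow fibres in the troponin values was not tested.

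**Figure D3:**
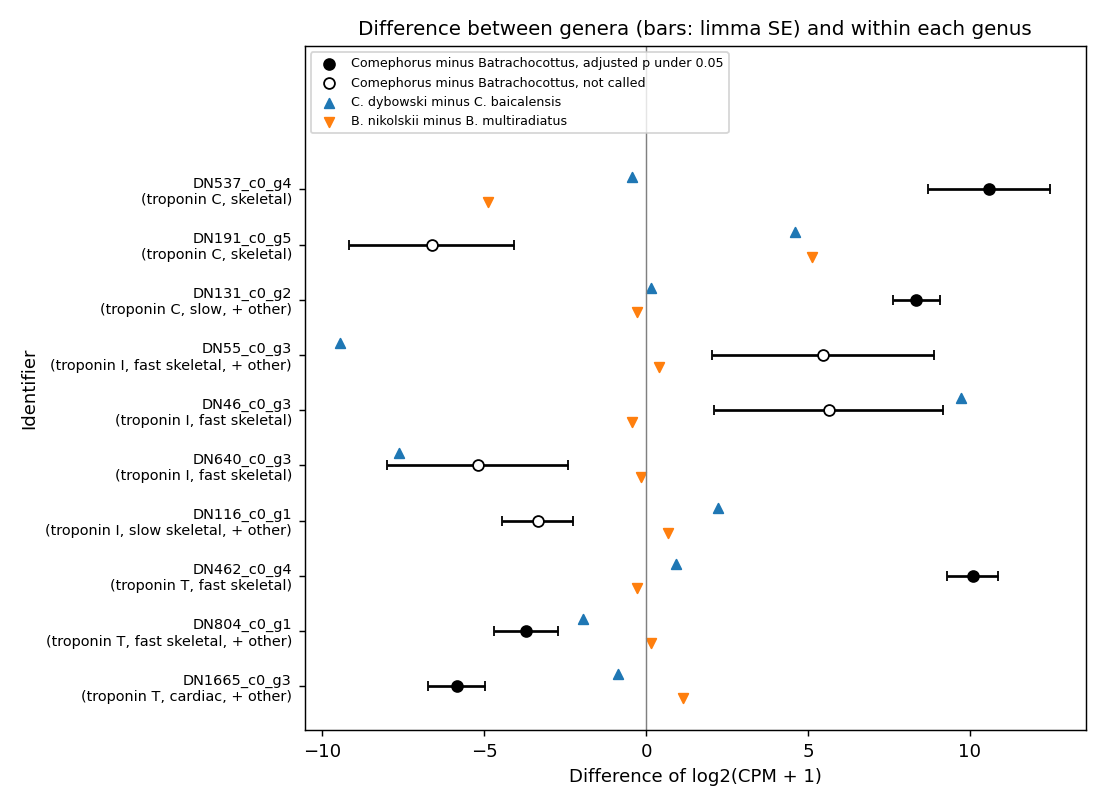
Differences of log2(CPM + 1) for the 10 identifiers (rows): circles are *Comephorus* minus *Batrachocottus* with limma's SE (filled where the adjusted p was under 0.05), and triangles are the differences between the 2 species of a genus, which have no error. The circles furthest from 0 with short bars were DN462_c0_g4 and DN131_c0_g2, whose 2 species of each genus lay close together.

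Over the 10 identifiers, 5 passed the test between genera, 3 higher in *Comephorus* (DN537_c0_g4, DN131_c0_g2 and DN462_c0_g4) and 2 lower (DN804_c0_g1 and DN1665_c0_g3). Of these 5, only DN537_c0_g4 and DN462_c0_g4 carried troponin titles alone, and the others, both lower ones included, also carried the title of another protein. Of all 792 identifiers, 54% passed, 30.1% higher in *Comephorus* and 24% higher in *Batrachocottus*, so the share among these 10 was near that of the table. For all 10 the values of the 2 genera did not overlap, with *Comephorus* above for 5 and below for 5. This was also the case for 84.5% of the 792, with *Comephorus* above in 44.6% and below in 39.9%. The median difference was 1.06 for the 10 and 1.40 for the 792. Over all 17 identifiers with a troponin title, limma called 4 higher in *Comephorus* and 2 lower (35.3% called). The genera overlapped for 2 of the 17, and their median difference was -1.46. Leaving out 1 library leaves its genus with a single library, whose spread is then taken from the other genus. Such fits (limma) called none, or fewer than the full fit, of the 10 and of the 792 alike. The differences stayed about as large for DN462_c0_g4, between 9.63 and 10.56, and for DN131_c0_g2, also titled as a ribosomal protein, between 8.209 and 8.498. At an unadjusted p under 0.05, 6 of the 10 and 440 of the 792 passed without *C. dybowski*, 7 and 453 without *C. baicalensis*, and 4 and 442 without *B. nikolskii*.

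The count tables gave a test over identifiers not limited to the 792, although the troponin identifiers in it were still among the selected 792. An identifier appears there for a genus where both libraries lie above about 1 CPM, and 6 of the 10 were listed for both genera among 4755 identifiers. In edgeR's quasi-likelihood test, DN462_c0_g4 and DN131_c0_g2 were higher in *Comephorus*, by 10.42 and 8.58 on the log2 scale (adjusted p = 0.0173 for each). Of all 4755, 9.21% passed, 5.01% in that direction and 4.21% in the other. Most of the 4755 lay outside the selected 792, so this share is not a like background for the troponin identifiers. The other 4 troponin identifiers did not pass: DN55_c0_g3 (9.55, adjusted p = 0.116), DN640_c0_g3 (-2.32, 0.493), DN804_c0_g1 (-3.47, 0.0794) and DN116_c0_g1 (-3.10, 0.106). DN804_c0_g1, called in the normalized tables, was thus not called here. With a single *Batrachocottus* library, edgeR called none of the 4755, with 1274 and 1441 at an unadjusted p under 0.05 without *B. nikolskii* and *B. multiradiatus*. The differences were then 10.15 and 10.75 for DN462_c0_g4 and 8.32 and 8.91 for DN131_c0_g2 (adjusted p = 0.0704 and 0.0612 for each). With a single *Comephorus* library it called 292 of the 4755 and 4 of the 6 when *C. dybowski* was left out, and 110 of the 4755 and 3 of the 6 when *C. baicalensis* was. Fast troponin I and slow troponin I turned on these libraries: without *C. dybowski*, DN55_c0_g3 was called at 10.53 (adjusted p = 0.00157) and DN116_c0_g1 at -4.84 (adjusted p = 0.0311). Without *C. baicalensis*, DN55_c0_g3 was at 0.83 (adjusted p = 0.625) and DN640_c0_g3 was called at -9.38 (adjusted p = 0.0340).

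**Figure D4:**
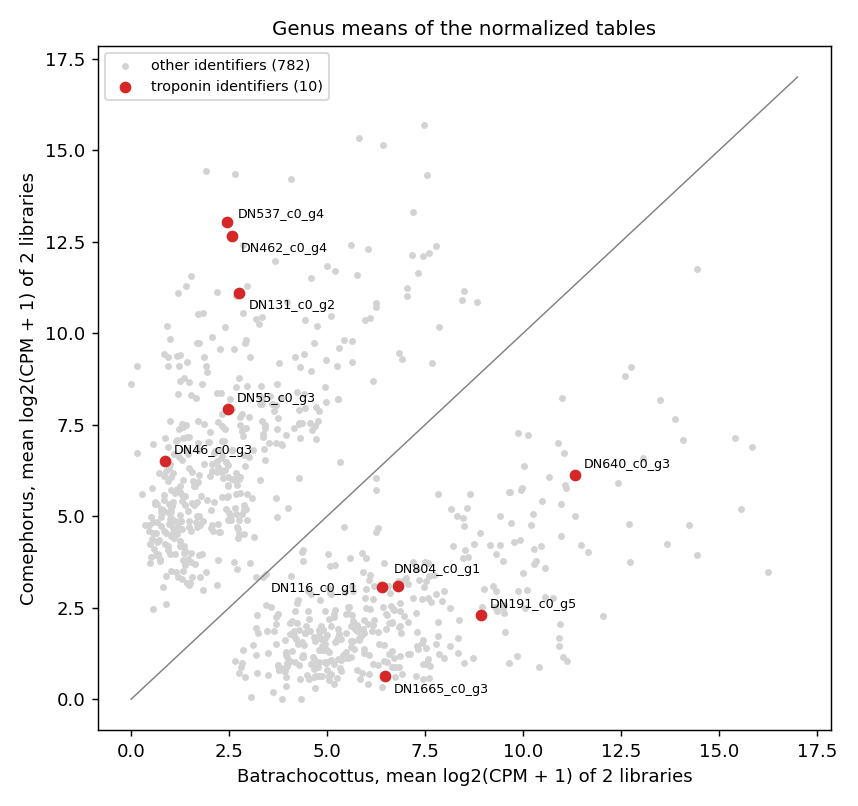
Mean log2(CPM + 1) of the 2 *Comephorus* libraries (vertical axis) against that of the 2 *Batrachocottus* libraries (horizontal axis) for the 792 identifiers, with the 10 troponin identifiers in red and the line of equal values. Red points lie on both sides of the line, 5 above it and 5 below it, within the 2 clouds formed by the other identifiers.

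Within *Comephorus*, 5 of the 10 identifiers differed by at least 4-fold on the log2(CPM + 1) scale, 3 higher in *C. dybowski* (DN46_c0_g3, DN191_c0_g5 and DN116_c0_g1) and 2 higher in *C. baicalensis* (DN55_c0_g3 and DN640_c0_g3). Over the 792 this was the case for 26.5%. Within *Batrachocottus*, 2 of the 10 did, DN191_c0_g5 higher in *B. nikolskii* and DN537_c0_g4 higher in *B. multiradiatus*, against 30.2% of the 792. The median absolute difference of the 10 was 2.10 within *Comephorus* and 0.42 within *Batrachocottus*, against 0.97 and 1.02 for the 792. With 1 library per species, these differences have no test. A value in 1 library at least 10-fold above the other 3 was found for 3 of the 10 (DN46_c0_g3, DN55_c0_g3 and DN191_c0_g5), and for 19.8% of the 792.

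The partners of troponin in the same muscle moved in both directions too, by lists of protein titles from which troponin identifiers were left out. Their counts stand beside the 792, of which 54% passed, 30.1% higher and 24% lower in *Comephorus*, with a median of 1.40. Of 16 identifiers titled as alpha actins, tropomyosins, tropomodulins or nebulins, the other parts of the thin filament, 5 were higher and 5 lower in *Comephorus* and 6 did not pass (62.5% called, limma, median difference 2.88). The one furthest apart, DN60_c0_g2, titled alpha actin and also with 2 unrelated titles, was at 32914 and 52062 CPM in *C. dybowski* and *C. baicalensis*, against 37.2 and 81.2 CPM in *B. nikolskii* and *B. multiradiatus* (9.53 ± 0.85, SE, limma, adjusted p = 0.0126). Of 19 identifiers titled as myosin chains or myosin binding proteins, 5 were higher, 5 lower and 9 not called (52.6% called, median -4.02). Among these, DN38_c1_g1, titled skeletal myosin regulatory light chain 2 and calpain-7, was at 26108 and 13899 CPM in *C. dybowski* and *C. baicalensis*, against 12.9 and 19.8 CPM in *B. nikolskii* and *B. multiradiatus* (10.13 ± 0.81, SE, limma, adjusted p = 0.0126).

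Of 12 identifiers for calcium handling, which cover the calcium buffer parvalbumin and proteins of the sarcoplasmic reticulum, 6 were higher, 2 lower and 4 not called (66.7% called, median 4.59). DN383_c0_g2, titled parvalbumin beta and macrophage migration inhibitory factor, was at 23337 and 21170 CPM in *C. dybowski* and *C. baicalensis*, against 4.18 and 1.75 CPM in *B. nikolskii* and *B. multiradiatus* (12.52 ± 0.79, SE, limma, adjusted p = 0.0126). Within *Comephorus*, 43.8%, 42.1% and 50.0% of the thin filament, motor and calcium lists were at least 4-fold apart, beside 50.0% of the 10 troponin identifiers and the 26.5% of the 792. DN1094_c0_g1, with titles of a myosin light chain and of parvalbumin, counted in both the motor and the calcium list.

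**Figure D5:**
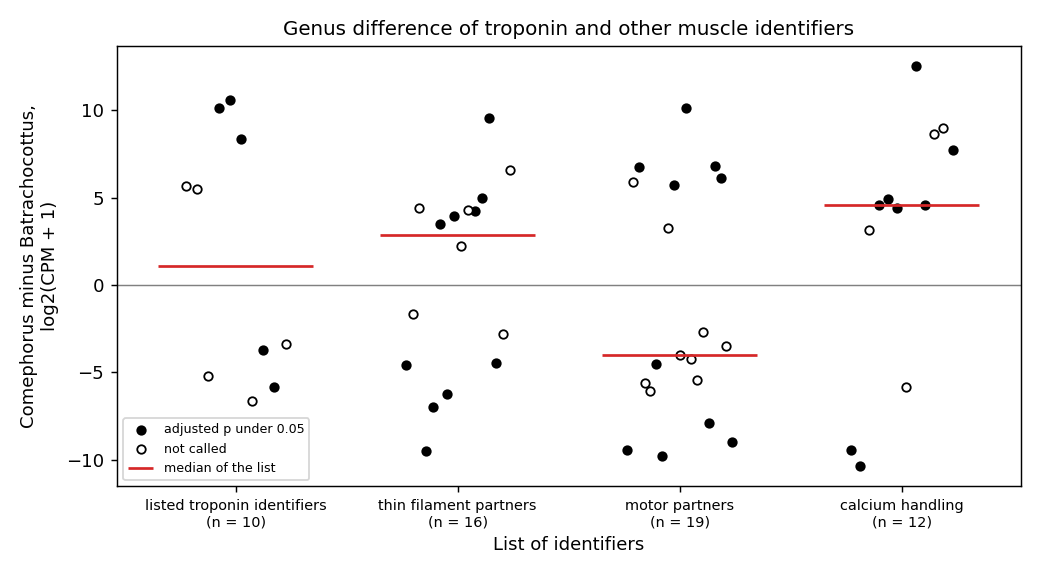
*Comephorus* minus *Batrachocottus* difference of log2(CPM + 1) for each identifier (points, filled where the adjusted p was under 0.05) of the troponin list and of 3 lists of partner proteins, with the list's median as a red line. Each list had members on both sides of 0.

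Among identifiers with a single title other than troponin, the patterns nearest to those of the 10 belonged to diverse proteins, measured as the root mean square difference of centred log2(CPM + 1) over the 4 libraries. The closest matches were 60S ribosomal protein L21 (DN5744_c0_g1) for DN131_c0_g2, at 0.19, the cell survival protein Mcl-1b (DN2521_c0_g1) for DN1665_c0_g3, at 0.20, and methionine adenosyltransferase II alpha (DN1594_c0_g1) for DN116_c0_g1, at 0.25. Those for DN804_c0_g1, DN55_c0_g3 and DN640_c0_g3 were eIF5-mimic protein 2-A (DN617_c1_g2, 0.30), IST1 homolog (DN880_c0_g2, 0.52) and another 60S ribosomal protein L21 entry (DN6974_c0_g1, 0.61). Other ribosomal entries were nearest to DN462_c0_g4 (60S ribosomal protein L19, DN3232_c0_g4, 0.69) and to DN46_c0_g3 (60S acidic ribosomal protein P0, DN5989_c0_g2, 0.77). The loosest matches were those of the skeletal troponin C entries, with hemoglobin embryonic subunit alpha (DN7542_c0_g2) for DN537_c0_g4, at 1.38, and an ATP synthase subunit (DN18905_c0_g1) for DN191_c0_g5, at 1.70. With 4 libraries, many identifiers share a pattern.

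Markers of other cells also differed between libraries. Hemoglobins (9 identifiers) summed to 3382 and 3131 CPM in *C. dybowski* and *C. baicalensis*, against 1096 and 734 CPM in *B. nikolskii* and *B. multiradiatus*. This was the direction of the 3 troponin identifiers called higher in *Comephorus* and opposite to that of the 2 called lower. Both *Comephorus* values were also above both *Batrachocottus* values for 44.6% of the 792. None of the 9 hemoglobins was at 0 in a *Comephorus* library, and 1 was at 0 in *B. nikolskii*. Collagens (2 identifiers) summed to 14.1 and 138.2 CPM in *C. dybowski* and *C. baicalensis*, against 855.2 and 518.3 CPM in *B. nikolskii* and *B. multiradiatus*. Liver and egg markers (5 identifiers) summed to 40.2 and 166.9 CPM in *C. dybowski* and *C. baicalensis*, against 1411 CPM in *B. nikolskii* and 131.4 CPM in *B. multiradiatus*, high in *B. nikolskii* alone like DN191_c0_g5 and DN191_c0_g2. The 4 of these with a single title were at 37.3 and 164.2 CPM in *C. dybowski* and *C. baicalensis*, against 55.2 and 129.7 CPM in *B. nikolskii* and *B. multiradiatus*. The 1 pancreas marker was at 1.16 and 0.076 CPM in *C. dybowski* and *C. baicalensis*, against 26.9 CPM in *B. nikolskii* and 0.984 CPM in *B. multiradiatus*. Keratins (7 identifiers) summed to 183.2 and 588.9 CPM in *C. dybowski* and *C. baicalensis*, against 29.0 and 894.4 CPM in *B. nikolskii* and *B. multiradiatus*. The 1 perilipin was at 2.2 and 30.8 CPM, against 0.488 and 70.5 CPM, in the same order. Both were highest in *B. multiradiatus*. A single title was carried by 4 of the 9 hemoglobins, 3 of the 7 keratins and the perilipin, and by neither the collagens nor the pancreas marker. Most of these sums thus take in identifiers with titles of other proteins. The part of these cells in the troponin differences was not tested.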

How the data were processed

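Pooled muscle RNA of 4 species gave 1 library each. The authors trimmed reads (Trimmomatic 0.36), assembled each species separately with Trinity, merged the assemblies at a set sequence identity with CD-HIT, added a running number to each transcript name and estimated reads with Salmon. The deposited count tables hold whole-number read estimates per identifier, without normalization. The deposited CPM values were scaled by the authors with edgeR 4.0.3 to TMM-adjusted library sizes, which from the ratio of both tables were 55590390 and 52881432 reads in *C. dybowski* and *C. baicalensis*, against 68019680 and 57041996 reads in *B. nikolskii* and *B. multiradiatus*. Reads that the count tables do not list were taken as CPM times this size.

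Titles came from the supplementary annotation of the study, which could be read in part. It gave titles for 657 of the 792 identifiers, 336 of them with several. Identifiers outside the 792 have no title here, so sums per form are not totals of that protein.

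With R 4.3.3, limma 3.58.1 was fitted to log2(CPM + 1) of the 792 identifiers and edgeR 4.0.16 (quasi-likelihood, TMM) to the counts of the 4755 identifiers listed for both genera. Calls used a Benjamini-Hochberg adjusted p under 0.05 over the whole table. A zero was given the limit of 3 counts, and Wilson intervals used 95%; both cover counting error only. No sequencing library beyond the pools replicates a species, so p-values here rest on the spread between the 2 species of a genus. Both limma and edgeR moderated that spread over the whole table, so an SE is not the spread of its identifier alone. For DN131_c0_g2 the limma SE was 0.72, against a pooled SD between species of a genus of 0.16. Alternatives were pseudocounts of 0.1 and 10, a minimum mean of 10 CPM, DESeq2 1.42.0, no filter, other identifiers per form and leaving out each library, and, chosen after seeing the data, unadjusted totals, the authors' library sizes and subsets of the marker lists.

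The identifiers and the lists of partner proteins and markers were chosen with earlier results of these data known. The text names the 10 identifiers, other troponin identifiers on which a sum turned, the nearest pattern to each of the 10, and the member of each list with the largest difference. No sequence was at hand for these transcripts, and none is printed.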

Additional observations from a re-analysis of the deposited data

How the results depend on the processing

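The main limma fit called 5 of the 10 troponin identifiers between genera and 428 of the 792. The same 5 were called with a mean of at least 10 CPM (425 of all 762) and with unadjusted totals (426 of the 792). A pseudocount of 0.1 gave 4 (DN804_c0_g1 lost, limma, adjusted p = 0.0536) and 403 of the 792. A pseudocount of 10 gave 6 (DN116_c0_g1 gained, limma, adjusted p = 0.0486) and 379 of the 792. Leaving out 1 library gave between 0 and 4 of the 10 and between 0 and 316 of the 792. These fits rest on a single library in 1 genus and lose power with it. No direction of the 10 turned in any alternative of the limma fit. The genera did not overlap for any of the 10, so no left-out library, pseudocount or filter could have turned one. Unadjusted totals moved the median of the 792 by -0.17, to 1.23. Outside the 10, leaving out 1 library gave -7.43 to 0.071 for DN123_c0_g1 (turned without *C. baicalensis*) and -3.03 to 0.11 for DN349_c0_g1 (turned without *B. nikolskii*; -3.59 to 0.34 on counts).

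On counts, DESeq2 called 5 of the 6 tested troponin identifiers and 1808 of 4755. With no filter, edgeR called 9 of the 10 and 11668 of 15221, where an identifier not listed for a genus entered at 0 there. Leaving out 1 library gave between 0 and 4 of the 6 and between 0 and 292 of the 4755. Sums per form moved in fast troponin I (0.81 to -0.66 with identifiers of that form only), fast troponin T (5.80 to 0.71 with all identifiers of the title and 10.09 with identifiers of that form only) and cardiac troponin T (-5.85 to -4.18 with all identifiers of the title).

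No paired analysis was possible because the labels number no replicates and the species of 1 genus have no partner in the other. Count tests on reads recovered from the normalized values were not run, since the values did not come out as whole reads.

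Each species is 1 pooled library, the 792 identifiers were selected on these libraries, and CPM is not corrected for length. Of the 10 troponin identifiers, 5 also carry the title of another protein. Depth limits only the values near 0, where 3 counts correspond to 0.0441 to 0.0567 CPM.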

Other observations

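The authors' running numbers tie each titled transcript to its place in the merged assembly. In all 5 listed identifiers with a second protein, the troponin title and the other title stood on different transcripts. For DN131_c0_g2 the transcript titled slow troponin C was number 135350 and the one titled ribosomal protein L36 was number 57632, and for DN116_c0_g1 slow troponin I was number 135323 and heat shock protein beta-8 number 94448. In both cases the 2 transcripts had the same name before the number. For DN804_c0_g1 troponin T was number 116378 and the other titles were on number 69977. In DN55_c0_g3 (49525 for troponin I, 49523 for aldehyde dehydrogenase) and DN1665_c0_g3 (82330 for troponin T, 82328 for dynamin-1-like protein) the 2 numbers were neighbours.

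Across the identifiers of the normalized tables whose titled transcripts all fell in 1 range of numbers, the library with the highest value varied with the number. Of 85 identifiers numbered below 40000, 52 were highest in *C. dybowski*, and of 131 numbered 40000 to 79999, 64 were highest in *C. baicalensis*. Of 115 numbered 80000 to 119999, 69 were highest in *B. nikolskii*, and of 44 numbered 120000 to 159999, 30 were highest in *B. multiradiatus*. The troponin identifiers with 1 title lay in these ranges in the same way. DN46_c0_g3 (8865 and 8867) and DN462_c0_g4 (17371) were highest in *C. dybowski* and DN537_c0_g4 (42784) in *C. baicalensis*. DN191_c0_g5 (94255) was highest in *B. nikolskii* and DN640_c0_g3 (123517) in *B. multiradiatus*. The other species of the same genus lay close below for some, by 1.105-fold for DN640_c0_g3, 1.34-fold for DN537_c0_g4 and 1.91-fold for DN462_c0_g4. DN131_c0_g2 had its troponin C transcript numbered in the last range and its ribosomal transcript in the second. It was highest in *C. dybowski* (2335.6 CPM), with 2093 CPM in *C. baicalensis* and 6.48 CPM in *B. multiradiatus*. DN116_c0_g1 and DN804_c0_g1 were highest in *B. nikolskii*. The range mostly highest in that species held the heat shock transcript of DN116_c0_g1 and the troponin T transcript of DN804_c0_g1. For DN55_c0_g3 and DN1665_c0_g3 both titles fell in the range of the library with the highest value. Which transcript of an identifier the reads came from was not tested. Nor was it tested whether identifiers of the same form are separate genes or the same gene as assembled separately in different species.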
